A study of Mus musculus with 3 samples.

Results

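The cortex bins described here are small squares of thymus tissue whose surroundings are rich in transcripts of cortical thymic epithelial cells and poor in those of medullary ones. Thymus sections from 3 female C57BL/6 mice were profiled with spatially barcoded slides, and transcripts were counted by unique molecular identifiers (UMIs). There were 2 *Trp53*-/- (KO) sections, called KO1134 and KO1308 after mice aged 17 and 21 weeks, and 1 *Trp53*+/+ (WT) section, called WT1101 after a mouse aged 17 weeks. The study describes its KO thymus samples as pre-neoplastic. The comparison asks how the cortex of a thymus without p53 differs from a WT cortex across all genes.

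UMIs were summed in squares of 27 µm, and the 56744 squares (bins) were kept in which 300 or more genes were seen and mitochondrial UMIs did not exceed 30%. For each bin, the UMIs of 4 cortical epithelial genes (*Psmb11*, *Prss16*, *Ccl25* and *Ly75*) and of 4 medullary epithelial genes (*Aire*, *Krt5*, *Krt14* and *Ccl21a*) were summed over the window of 7 × 7 bins around it and divided by all UMIs of that window. A bin was a cortex bin where the cortical share was at or above that of all kept bins of its section and the medullary share was below that of its section. This gave 21146 cortex bins of 56744 kept bins, 5077 of 12044 in KO1134 (42.2%, exact 95% binomial interval 41.3 to 43.0), 6487 of 17425 in KO1308 (37.2%, 36.5 to 38.0) and 9582 of 27275 in WT1101 (35.1%, 34.6 to 35.7). A bin of this size holds several cells or parts of cells, so a cortex bin contains thymocytes and stroma as well as epithelium. Intervals on counts cover counting error only, and neighbouring bins share their windows.

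The thymic cortex is where most T cell development takes place. Progenitors enter as CD4-CD8- double-negative cells, rearrange the TCR beta gene, proliferate after beta-selection and become CD4+CD8+ double-positive thymocytes, which rearrange the TCR alpha gene and are tested on cortical epithelium. Cortical epithelial cells supply the Notch ligand that commits progenitors, chemokines that hold them in place, and peptides cut by a thymus-specific proteasome. Cells that pass the test move to the medulla, where mature epithelium displays tissue antigens. The protein p53 stops the division or triggers the death of thymocytes with broken DNA, and mice without it are prone to thymic lymphoma.

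The 3 sections differed in depth. The deposited counts held between 21089885 and 41581477 UMIs per section, of which the cortex bins had 13895422 in KO1134, 7121334 in KO1308 and 16076790 in WT1101. A cortex bin had a median of 2787, 922 and 1548 UMIs and of 1741, 733 and 1148 genes in the same order, and 0.894% to 1.22% of its UMIs were mitochondrial. The sections shared 5486 to 13503 barcode sequences by pair, at most 1.75% of the smaller set. Permeabilisation time differed between KO and WT tissue according to the study's methods, so it cannot be told apart from genotype. Since there was 1 WT section, tests between genotypes take the spread from the 2 KO sections, and their p-values measure only the spread between these sections.

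KO1134 stood apart within its genotype. Its cortex bins held few transcripts of double-positive thymocytes, and *Trbc1* made up 62.9% (62.4 to 63.3) of the UMIs of the 2 TCR beta constant genes there, against 34.1% (33.5 to 34.6) in KO1308 and 36.9% (36.6 to 37.1) in WT1101. In its medulla bins, defined by the opposite rule, the *Trbc1* share was 42.6%. Ribosomal protein genes held 14.1% of cortex UMIs in KO1134, 10.6% in KO1308 and 9.78% in WT1101. Values are therefore given for each section throughout.

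**Figure D1:**
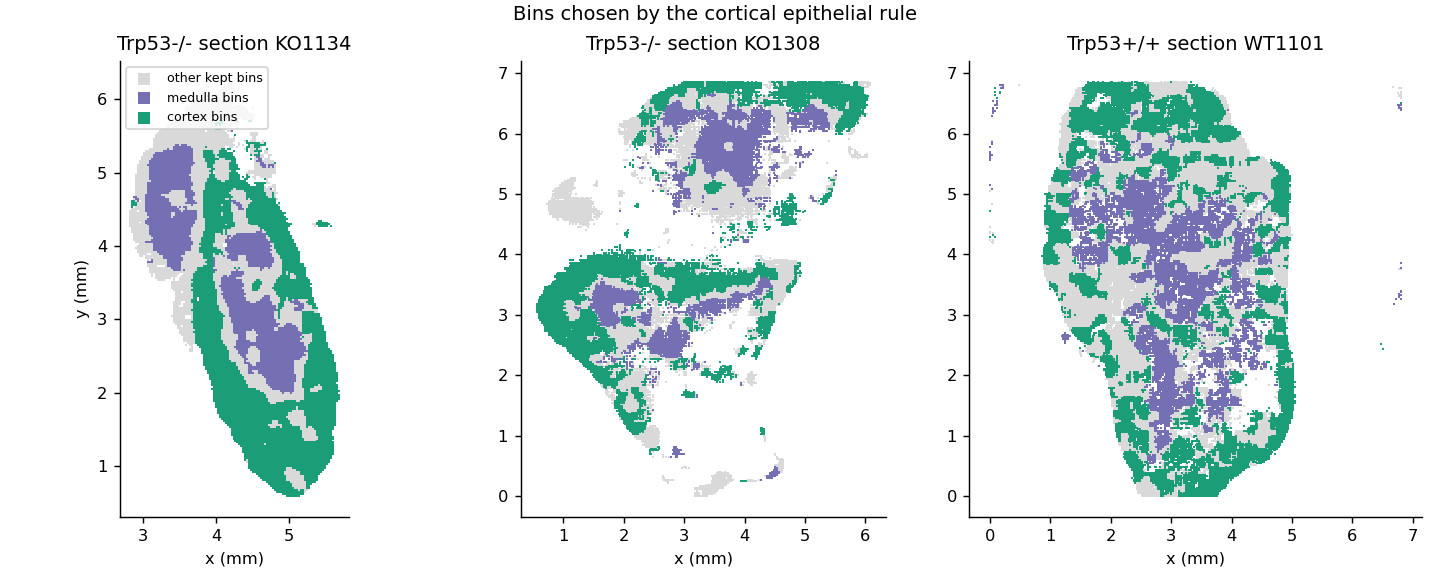
Maps of kept bins in KO1134, KO1308 and WT1101, with position in mm on both axes and cortex bins in green. The 5077 cortex bins of KO1134 follow the edge of the section, whereas the 9582 of WT1101 form patches throughout it.

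The genes of the rule are given as a description only. Levels are counts-per-million (CPM), scaled to the UMIs of a section's cortex bins, or to those of a window where a window share is given. *Psmb11*, on chromosome 14 of GRCm38 from 54621433 to 54629556, encodes the catalytic subunit of the thymus-specific proteasome and had 187 CPM in KO1134, 182 in KO1308 and 144 in WT1101. *Prss16* (chromosome 13, 22002173 to 22009742), a serine protease of cortical epithelium that serves the peptides for CD4+ T cell selection, had 533, 746 and 472 CPM in the same order. The 4 cortical genes together took 1872, 2068 and 1937 CPM.

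*Ccl25* (chromosome 8, 4325210 to 4360020), a chemokine that attracts thymocyte progenitors, stood at 758, 681 and 895 CPM. *Ly75* (chromosome 2, 60292103 to 60383303), an endocytic receptor of cortical epithelium and dendritic cells, was at 394, 458 and 426 CPM. Neither gene had both KO sections above WT.

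The medullary part of the rule did not act alike in the 3 sections. The section-wide medullary share, which set the upper limit, was 676 CPM in KO1134, 717 in KO1308 and 190 in WT1101, and cortex bins accordingly held 163, 308 and 46.7 CPM of the 4 medullary genes. The median medullary share in the windows of cortex bins was 140, 304 and 44.9 CPM, and 28, 58 and 922 cortex bins had a share of 0. *Krt5*, a keratin of medullary epithelium, was at 60.3, 178 and 22.4 CPM. Near the cortical limit, bins within 5% of it had median cortical shares of 1303, 1542 and 1484 CPM just inside and 1237, 1470 and 1411 just outside, in 190, 494 and 1176 bins against 178, 389 and 1274. Applying the WT shares to all sections left 23.8% of kept bins in KO1134 and 10.8% in KO1308 as cortex.

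The 15 other genes of cortical epithelium, which the rule did not use, summed to 4494 CPM in KO1134, 4426 in KO1308 and 4373 in WT1101, of which *Ctsl* gave the largest part. None passed the test between genotypes at an adjusted p of 0.05 in edgeR, 0 had an unadjusted p under 0.05, and DESeq2 called 0. Both KO sections were above WT for 12 of the 15 and below it for 2, where 42.1% of all genes had both above and 26.8% both below, and the median log2 difference between KO and WT was 0.29, beside 0.06 over all genes tested. *Ctsl*, the protease cathepsin L that cuts self peptides in cortical epithelium, stood at 2254, 2270.5 and 2503 CPM. *Pax1*, a transcription factor of thymic epithelium, was at 97.0 CPM in KO1134, 179.6 in KO1308 and 90.4 in WT1101.

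*Foxn1*, the master regulator of thymic epithelium, had 16.5, 26.96 and 9.77 CPM. *Dll4*, the Notch ligand that commits progenitors to the T lineage, had 13.7, 21.1 and 10.9 CPM. For both genes the WT section was the lowest, but the log2 differences of 1.01 ± 0.58 (SE, 2 KO and 1 WT sections) for *Foxn1* and 0.53 ± 0.58 for *Dll4* did not pass (adjusted p = 0.780 and 0.885). *Krt8* and *Krt18*, keratins of cortical epithelium, were at 265 and 379 CPM in KO1134, 269.8 and 427 in KO1308, and 201 and 269.5 in WT1101.

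The label was checked against the medulla bins of the same section, as a description without a test. Double-positive thymocyte genes set the cortex apart in KO1308 and WT1101, and less clearly in KO1134. Of the 15 other cortical epithelial genes, 11 were higher in cortex than in medulla bins in KO1134, 9 in KO1308 and 10 in WT1101. Of 18 double-positive thymocyte genes, 17 were higher in cortex in KO1308 and 17 in WT1101, but 11 in KO1134. *Cd8a* was at 61.1 CPM in the cortex and 241 CPM in the medulla of KO1134, the opposite order to KO1308 (847 and 307) and WT1101 (1974 and 1177). Bins resembling lymph node, where B cell genes exceeded thymus genes, were 1118 of the 2800 medulla bins of KO1134, 399 of 3991 in KO1308 and 0 in WT1101, and their part in that order was not tested. All 20 genes of a mitosis list and all 20 of a DNA replication list were higher in cortex than in medulla bins in every section, and 12 of 13 genes of MHC class I presentation were lower. In WT1101, bins that met neither definition held 11456 CPM of the double-positive genes, close to the 11567 of its cortex bins.

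The targeted gene was low in both KO sections. *Trp53* (chromosome 11, 69580359 to 69591873) had 13.7 CPM in KO1134, 25.3 in KO1308 and 80.2 in WT1101, without overlap between genotypes. The log2 difference was -2.19 ± 0.48, which did not pass (adjusted p = 0.484, edgeR).

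Across 19423 genes tested, 1 was called higher in KO cortex (0.00515%) and 2 were called lower (0.0103%) at an adjusted p of 0.05, and 882 and 439 had an unadjusted p under 0.05. DESeq2, which shares spread between genes differently, called 81 higher and 13 lower. The gene called higher was *Cdkn2a* (chromosome 4, 89274471 to 89294653), which encodes 2 tumour suppressors, p19Arf and p16Ink4a. p19Arf stabilises p53 by blocking *Mdm2*, and p16Ink4a inhibits the cyclin D kinases.

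*Cdkn2a* had 92.1 CPM in KO1134 (1280 UMIs), 60.7 in KO1308 (432 UMIs) and 0.311 in WT1101 (5 UMIs). Both KO sections lay far above WT, 296-fold (exact 95% interval 127 to 914) and 195-fold (82.9 to 604) by counting error. The log2 difference was 7.79 ± 0.81 (adjusted p = 0.0236, higher in 2 of 2 KO sections). The call was lost with DESeq2 size factors (adjusted p = 0.117), with bins of 20 µm (0.809), with other windows, with other gene limits and without ribosomal protein, mitochondrial and immunoglobulin genes (0.0511), while the difference ran from 6.995 to 11.17 over all alternatives, including those that kept the call.

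Seen by windows, which also take in kept bins outside the cortex, *Cdkn2a* UMIs were found over most of the KO cortex. Most single cortex bins held none. In KO1308 the window share ran from 0 to 1597 CPM, with a 25th percentile of 12.7. A *Cdkn2a* UMI was seen in 1054 cortex bins of KO1134 (20.8%), 377 of KO1308 (5.81%) and 5 of WT1101 (0.0522%, 0.0169 to 0.122). Windows without any *Cdkn2a* UMI made up 1.65% of the cortex windows in KO1134, 23.2% in KO1308 and 97.8% in WT1101, and these windows held a median of 138210, 48141 and 74014 UMIs. In medulla bins *Cdkn2a* was at 18.9, 39.2 and 3.19 CPM. It was thus higher in cortex than in medulla in both KO sections and lower in cortex in WT1101.

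The 2 products of *Cdkn2a* start from separate promoters, and the counts join the transcripts of both, so the levels above cannot be assigned to either. The 300 bases around each start (250 before and 50 after, minus strand, RefSeq, GRCm38.p6) are shown for that reason, with CG dinucleotides in capitals. The upstream start, of the p19Arf transcript, lies at chr4:89294570-89294869, and the downstream start, of the p16Ink4a transcript, at chr4:89282143-89282442.
Cdkn2a upstream start: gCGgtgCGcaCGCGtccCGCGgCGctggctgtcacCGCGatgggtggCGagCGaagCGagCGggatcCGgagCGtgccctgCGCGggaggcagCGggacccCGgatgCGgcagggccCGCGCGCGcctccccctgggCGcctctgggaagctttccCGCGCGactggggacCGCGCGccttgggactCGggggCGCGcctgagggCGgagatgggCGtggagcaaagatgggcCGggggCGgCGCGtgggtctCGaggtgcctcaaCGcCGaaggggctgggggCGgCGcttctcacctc
Cdkn2a downstream start: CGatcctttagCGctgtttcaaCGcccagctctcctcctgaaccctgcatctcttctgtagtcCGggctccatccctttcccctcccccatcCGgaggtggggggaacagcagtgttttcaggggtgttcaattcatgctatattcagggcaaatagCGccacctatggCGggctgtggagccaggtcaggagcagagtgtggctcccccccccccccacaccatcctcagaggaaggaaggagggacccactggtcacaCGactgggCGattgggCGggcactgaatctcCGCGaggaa
The upstream window holds 45 CG dinucleotides and the downstream window 12, searched as the letters CG, which read the same on both strands. As many as 45 are held by 1.93% and as many as 12 by 39.6% of 32851 promoter windows of this length, whose median is 7.

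Beside *Cdkn2a*, 5 other inhibitors of cyclin-dependent kinases were measured. *Cdkn2b*, its neighbour that encodes p15Ink4b, had 3.38, 3.09 and 0.311 CPM, with a log2 difference of 3.22 ± 1.07 that did not pass (adjusted p = 0.720). *Cdkn2d*, which encodes p19Ink4d, had 65.5 CPM in KO1134, 135 in KO1308 and 219.6 in WT1101. *Cdkn2c*, which encodes p18Ink4c, had 98.1, 90.3 and 121 CPM. The INK4 genes thus had both KO sections above WT for *Cdkn2a* and *Cdkn2b* and below it for *Cdkn2c* and *Cdkn2d*.

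Of 27 measured p53 target genes, 15 had both KO sections below WT and 7 had both above, beside 26.8% and 42.1% of all genes. A fitted difference of at least 2-fold on the same side in both KO sections was seen for 8 genes downward and 3 upward, whereas this pattern held for 5.48% of all genes downward and 15.9% upward (1065 and 3096 genes). The list's median log2 difference was -0.50, and none of its genes passed in edgeR or DESeq2, with 6 lower and 1 higher at an unadjusted p under 0.05. Summed over the list, KO1134 had 1096 CPM, KO1308 1423 and WT1101 2216. On total UMIs without TMM scaling, the median of all genes was 0.19, beside 0.06 here and 0.05 with DESeq2 size factors, so differences should be read against that shift.

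*Ccng1*, cyclin G1, a direct p53 target in many tissues, was at 60.2 CPM in KO1134, 63.3 in KO1308 and 156 in WT1101, with the KO sections close together and well below WT (log2 difference -1.46 ± 0.45, adjusted p = 0.720). *Sesn1*, a stress-induced inhibitor of mTORC1, was at 159, 162 and 345 CPM. *Btg2*, an antiproliferative gene, was at 76.5, 186 and 384 CPM. *Zmat3*, an RNA-binding protein with tumour-suppressor activity, was at 10.4, 16.6 and 35.8 CPM.

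*Trp53inp1*, which encodes a p53-induced nuclear protein, had 86.4 CPM in KO1134, 245 in KO1308 and 391 in WT1101. *Cdkn1a*, which encodes the cell cycle inhibitor p21, had 3.53, 5.48 and 10.2 CPM. *Mdm2*, the ubiquitin ligase that degrades p53, had 63.7, 77.5 and 106 CPM, a log2 difference of -0.72 ± 0.45 (adjusted p = 0.798). All the target genes named here had the WT section highest, and none passed the test. They do not stand for the whole list, in which 7 genes had both KO sections above WT, 3 of them by at least 2-fold. *Ccnd2*, given below with the proliferation genes, was among these 7.

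**Figure D2:**
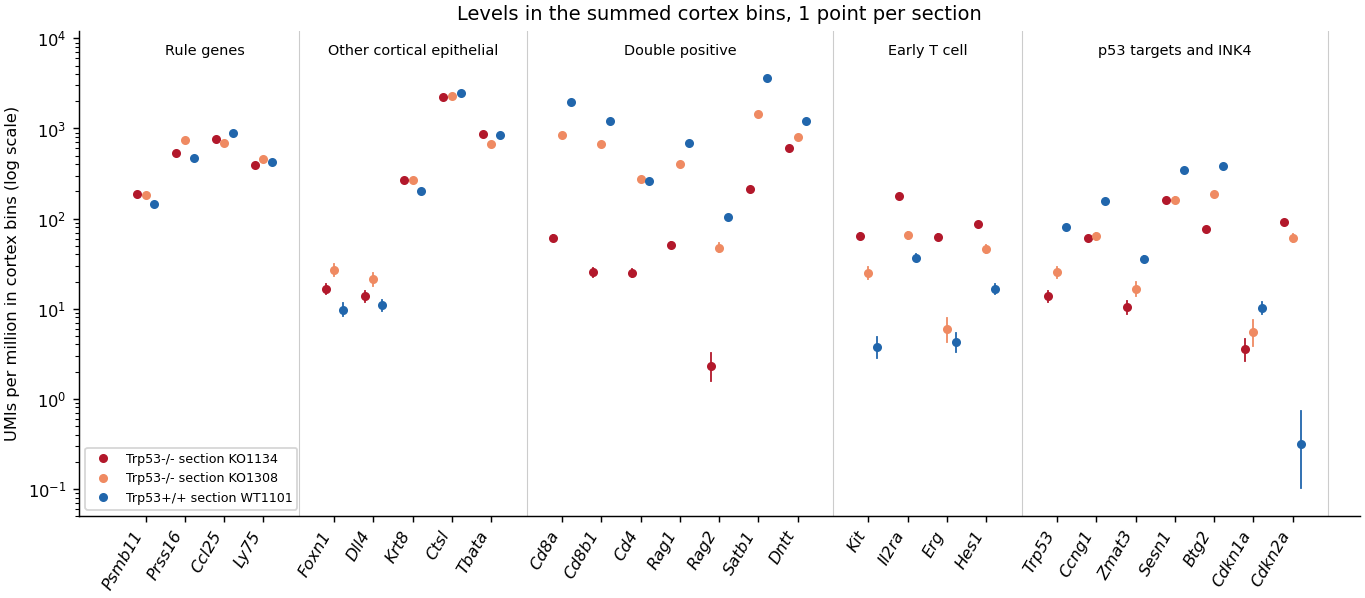
Cortex levels of named genes in CPM on a log axis, 1 point per section with exact 95% Poisson intervals as bars. Cdkn2a is near 0.3 CPM in WT1101 and at 92.1 and 60.7 CPM in KO1134 and KO1308, while Trp53 and Cd8a are highest in WT1101.

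Most double-positive thymocyte genes had lower values in the cortex of both KO sections than in WT, and the lowest sum was in KO1134. The 18 genes of this list summed to 2392 CPM in KO1134, 6194 in KO1308 and 11567 in WT1101. Both KO sections lay below WT for 15 of the 18 genes, as for 26.8% of all genes, and above it for none, and 9 had a fitted difference of at least 2-fold, as 5.48% of all genes. The median log2 difference was -1.01, -1.75 with KO1134 alone and -0.82 with KO1308 alone. No gene of the list passed in edgeR or DESeq2, and 2 had an unadjusted p under 0.05. Fewer cells of a type and less RNA per cell cannot be told apart in such sums.

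*Cd8a* and *Cd8b1* (chromosome 6, 71373427 to 71379173 and 71322788 to 71337494) encode the chains of the CD8 co-receptor. *Cd8a* had 61.1 CPM in KO1134, 847 in KO1308 and 1974 in WT1101, and *Cd8b1* 25.3, 675 and 1206. The order was the same for both genes, with KO1134 more than 10 times below KO1308. The fitted log2 differences of -2.31 ± 1.03 and -1.98 ± 1.19 did not pass (adjusted p = 0.734 and 0.789). *Cd4*, the co-receptor for MHC class II, had 25.1 CPM in KO1134 and 276 in KO1308, on both sides of the 264 of WT1101.

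*Rag1*, which with *Rag2* cuts the TCR genes, was at 51.4 CPM in KO1134, 407 in KO1308 and 687 in WT1101, and *Rag2* at 2.30, 47.6 and 104. *Satb1*, a chromatin organiser of double-positive cells, was at 212, 1462 and 3643 CPM (log2 difference -2.30 ± 0.87, adjusted p = 0.720). *Dntt* differed less: the template-free DNA polymerase of V(D)J joining stood at 609.6 CPM in KO1134, 814 in KO1308 and 1217 in WT1101.

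The difference between the KO sections was also a difference within KO1308. The combined share of *Cd8a* and *Cd8b1* in the windows of cortex bins had a median of 70.0 CPM in KO1134, 1616 in KO1308 and 3269 in WT1101. The 5th and 95th percentiles were 21.1 and 214 in KO1134, 347 and 2667 in KO1308, and 2276 and 3941 in WT1101. Of the cortex windows, 100% in KO1134 and 83.1% in KO1308 lay below the 5th percentile of WT1101. Windows of KO1308 thus spanned the range between those of the other sections and were partly within that of WT.

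**Figure D3:**
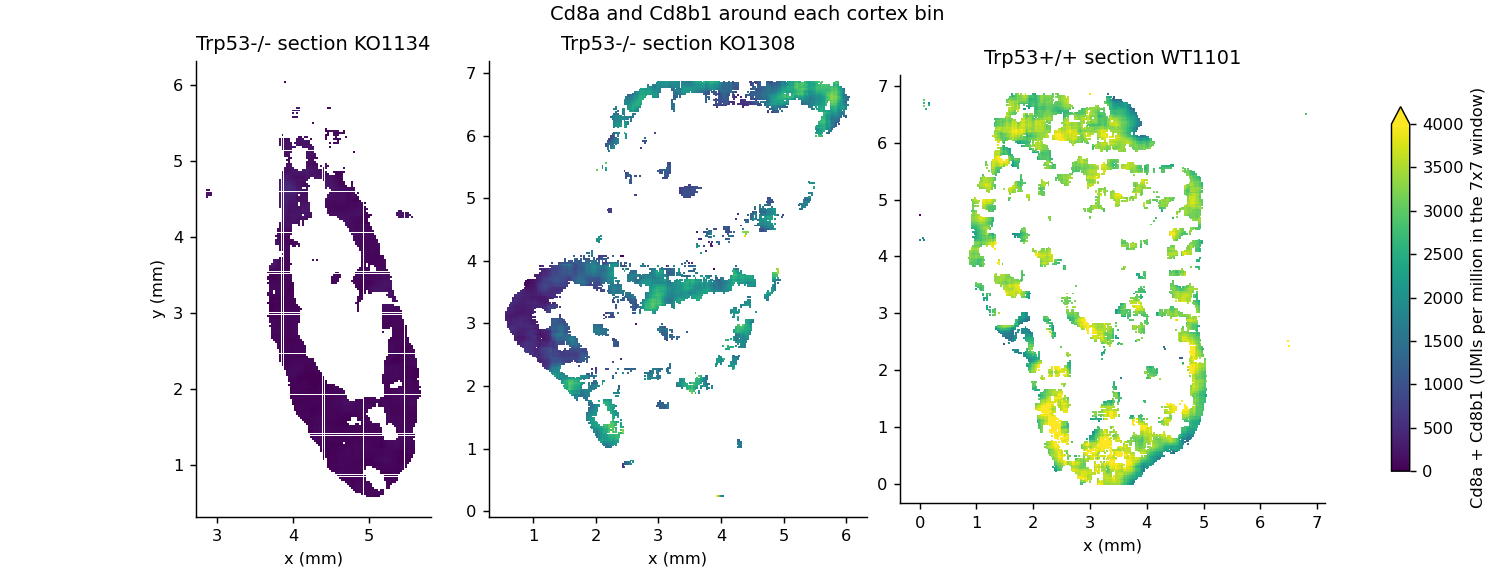
Window share of Cd8a and Cd8b1 in cortex bins of the 3 sections, in CPM on a colour scale that starts at 0, with position in mm. KO1134 is low throughout (median 70.0), KO1308 is low at 1 end of the tissue, and WT1101 is high throughout (median 3269).

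Genes of earlier thymocytes behaved unevenly. Among 13 genes of the double-negative and beta-selection stages, 8 had both KO sections above WT and 3 below, beside 42.1% and 26.8% of all genes. By at least 2-fold these were 5 and 2 genes, beside 15.9% and 5.48%, and the median log2 difference was 0.62. None passed in edgeR, 5 were higher at an unadjusted p under 0.05, and DESeq2 called 1 higher, *Kit*. *Kit*, the stem cell factor receptor of the earliest progenitors, had 64.6 CPM in KO1134, 25.1 in KO1308 and 3.73 in WT1101 (log2 difference 3.50 ± 0.77, adjusted p = 0.484). *Erg*, a transcription factor of progenitors, had 63.2 CPM in KO1134 but 5.90 and 4.23 in the other sections.

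Windows with more *Kit* and *Erg* than the 95th percentile of WT1101 made up 98.3% of the cortex in KO1134 and 32.2% in KO1308. *Il2ra*, the CD25 chain of double-negative cells, was at 178, 65.0 and 36.8 CPM, and *Hes1*, a Notch target, at 87.7, 45.9 and 16.5 CPM. WT1101 was lowest for each of these genes. *Ptcra*, the pre-TCR alpha chain, went the other way, with 3.96 CPM in KO1134, 13.1 in KO1308 and 17.9 in WT1101. *Bcl11b* and *Tcf7*, transcription factors of T cell commitment, were also below WT, at 285 and 362 CPM in KO1134, 488 and 553 in KO1308, and 759 and 816 in WT1101.

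Of 15 genes of the TCR complex and its signalling, 13 had both KO sections below WT (26.8% of all genes) and none had both above (42.1%). Below WT by at least 2-fold were 7 (5.48% of all genes), and the list's median log2 difference was -0.95. None passed in edgeR or DESeq2, and 5 were lower at an unadjusted p under 0.05. *Trbc2* had 1121 CPM in KO1134, 2681 in KO1308 and 4576 in WT1101, whereas *Trbc1* had 1899, 1386 and 2671. The constant genes therefore stood in opposite order in the 2 KO sections. *Cd28*, the co-stimulatory receptor, was at 29.2, 73.2 and 186 CPM, and *Ptprc*, which encodes CD45, at 365, 522 and 1219 CPM.

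The 19 genes of mature single-positive cells had a median log2 difference of 0.08, which turned to -0.17 with KO1308 alone and to -0.25 under the WT shares as limits. Both KO sections were above WT for 9 of them and below it for 7, beside 42.1% and 26.8% of all genes. The list summed to 1934 CPM in KO1134, 1440 in KO1308 and 1821 in WT1101. *Il7r*, the interleukin-7 receptor chain, was at 309.8 CPM in KO1134, 94.5 in KO1308 and 57.8 in WT1101. *Klf2*, which drives exit from the thymus, was at 85.1, 53.6 and 25.9 CPM, and *Runx3*, the factor of CD8 lineage choice, at 82.0, 20.2 and 8.02 CPM. *Cd69*, an early activation marker, was lower in the KO sections, with 20.1 and 16.9 CPM against 46.8 in WT1101. None of the 19 passed in edgeR or DESeq2, with 5 higher and 2 lower at an unadjusted p under 0.05.

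Summed levels of proliferation genes were lowest in the cortex of KO1134, and the sums in KO1308 were close to those of WT1101. The 20 mitosis genes summed to 2233 CPM in KO1134, 3299 in KO1308 and 3550 in WT1101, with a median log2 difference of -0.44, which was -0.73 with KO1134 alone and -0.15 with KO1308 alone. The 20 DNA replication genes summed to 2577, 3351 and 3358 CPM (median -0.27). Both KO sections were below WT for 8 mitosis and 7 replication genes and above it for 0 and 3, beside 26.8% and 42.1% of all genes. None of the 40 genes differed by 2-fold with both KO sections on the same side of WT, and none passed in edgeR or DESeq2 or had an unadjusted p under 0.05. *Mki67*, the proliferation antigen, was at 429, 427 and 502 CPM, and *Pcna*, the polymerase clamp, at 467, 428 and 575 CPM. Unlike the sums, neither gene was lowest in KO1134. *Myc*, which drives growth and ribosome production, was at 87.7 CPM in KO1134, 158 in KO1308 and 40.5 in WT1101 (log2 difference 1.45 ± 0.54, adjusted p = 0.720).

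*Ccnd2*, the D-type cyclin of early thymocytes and a member of the p53 target list, was at 28.9 CPM in KO1134, 31.0 in KO1308 and 11.4 in WT1101. The KO sections were close together above WT. The 10 genes of *Myc* and growth had a median log2 difference of 0.30, and none of them passed. At an unadjusted p under 0.05, 1 was higher and 1 lower, and DESeq2 called 0.

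Antigen presentation genes were measured in 2 groups. All 8 MHC class II genes had both KO sections above WT, as did 42.1% of all genes, 2 by at least 2-fold, and summed to 3326 CPM in KO1134, 2634 in KO1308 and 1556 in WT1101 (median log2 difference 0.81). *H2-Aa*, a class II alpha chain, had 562, 462 and 237 CPM, and *Cd74*, the invariant chain, 1297, 1120.0 and 583. Among 13 genes of MHC class I and peptide loading, 9 had both KO sections above WT, 4 of them by at least 2-fold, and 2 had both below, where all genes gave 42.1%, 15.9% and 26.8%. *B2m*, the class I light chain, had 1344, 1222 and 547 CPM, and *H2-K1*, a class I heavy chain, 1041, 1837 and 459.

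*Psmb8*, the immunoproteasome subunit, did not share that order, with 138 CPM in KO1134, 167 in KO1308 and 189 in WT1101. None of the 21 genes passed in edgeR or DESeq2, and 1 class I gene had an unadjusted p under 0.05. All 8 class II genes and 12 of the class I genes were higher in medulla than in cortex bins of every section, and the medullary limit of the cortex bins differed between sections as given above. Its part in these differences was not tested. With the WT shares as limits, the medians were 0.53 for class II and 0.38 for class I, against 0.81 and 0.40.

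Of 20 interferon-response genes, 17 had both KO sections above WT, 11 of them by at least 2-fold, and 1 had both below. Over all genes these shares were 42.1%, 15.9% and 26.8%. They summed to 2051.5 CPM in KO1134, 1372 in KO1308 and 753 in WT1101, with a median log2 difference of 1.03. None passed in edgeR, 7 were higher at an unadjusted p under 0.05, and DESeq2 called 1, *Iigp1*. *Irf7*, the regulator of the type I interferon loop, had 165 CPM in KO1134, 65.3 in KO1308 and 22.3 in WT1101. *Iigp1*, an interferon-inducible GTPase, had 49.5, 28.9 and 5.29 CPM (log2 difference 2.79 ± 0.64, adjusted p = 0.560). *Igtp*, another GTPase of that family, was the exception, at 27.4, 34.97 and 43.9 CPM. The list's median was 1.26 with KO1134 alone, 0.70 with KO1308 alone and 0.90 with the WT shares as limits. In every section 18 of the 20 genes were lower in cortex than in medulla bins. The part of the medullary limit, which was higher in the KO sections, was not tested.

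Markers of other cell types were measured in the same bins, some of them higher in both KO sections and some in 1, and their part in the differences above was not tested. All 10 adipocyte genes had both KO sections above WT by at least 2-fold, as did 15.9% of all genes. Their median log2 difference of 3.33 did not change with the gene at 0 in WT1101 at its bound. They summed to 400.3 CPM in KO1134, 496 in KO1308 and 157 in WT1101. In bins that met neither definition, these sums were 3883, 5122 and 133 CPM. *Adipoq*, the fat hormone adiponectin, had 8.20, 15.2 and 1.12 CPM in cortex bins. None of the 10 passed in edgeR, 6 were higher at an unadjusted p under 0.05, and DESeq2 called 2. In the windows of cortex bins their median was 273, 293 and 133 CPM and their 95th percentile 1310, 2217 and 308 CPM.

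Plasma cell genes summed to 4827 CPM in KO1134, 5360.2 in KO1308 and 2159 in WT1101, with 6 of 7 genes above WT in both KO sections. *Jchain*, the joining chain of secreted antibodies, had 449, 820.1 and 127 CPM, and immunoglobulin genes took 1.10%, 1.45% and 0.440% of cortex UMIs. B cell genes summed to 121, 81.0 and 39.5 CPM, with 8 of 9 above WT in both. Over all genes, 42.1% had both KO sections above WT. Macrophage genes summed to 2963.5, 1928 and 1356 CPM and dendritic cell genes to 1212, 680.4 and 668 CPM, both highest in KO1134. The macrophage median log2 difference of 0.74 was 0.08 with KO1308 alone. Dendritic cell genes of KO1308 were near WT in sum, but the list's median log2 difference of 1.19 was 0.93 with KO1308 alone. Both KO sections were above WT by at least 2-fold for 7 of 9 dendritic cell genes, as for 15.9% of all genes. Both were below WT for 1, and none of the 9 passed in edgeR or DESeq2. Fibroblast genes had 819, 904 and 330.2 CPM, and all 9 were above WT in both KO sections. No gene of the plasma cell, B cell or fibroblast list passed in edgeR. DESeq2 called 1 plasma cell gene, 0 B cell genes and 1 fibroblast gene higher.

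The 11 other medullary epithelial genes, of which 10 were tested, summed to 97.0 CPM in KO1134, 162 in KO1308 and 95.7 in WT1101. Both KO sections were above WT by at least 2-fold for 7 of them, as for 15.9% of all genes, and none passed in edgeR or DESeq2. The medullary limit of the cortex bins was 676 and 717 CPM in the KO sections and 190 in WT1101, and its part was not tested. The list's median log2 difference was 1.37, and 0.76 with the WT shares as limits. Endothelial genes summed to 117, 168 and 129.7 CPM, with WT1101 between the KO sections. By gene, both KO sections were above WT for 7 of the 8 and below it for 1, beside 42.1% and 26.8% of all genes. For 4 of them the fitted difference was at least 2-fold, as for 15.9% of all genes. Their median log2 difference was 0.91, and none passed in edgeR or DESeq2. Heart muscle genes were almost confined to KO1308: the 5 genes summed to 6.05, 113 and 4.35 CPM, and *Myh6*, the atrial myosin, was at 18.7 CPM in KO1308, 0 UMIs in KO1134 and 0.124 CPM in WT1101. The 4 erythroid genes were at 8.42, 4.49 and 12.4 CPM in sum.

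The pair of genes called lower were both pseudogenes, named here after their values were seen. *Cyp2c52-ps* (chromosome 19, 38976647 to 39003289), an unprocessed cytochrome P450 pseudogene, had 15 UMIs in KO1134, 4 in KO1308 and 1577 in WT1101, or 1.08, 0.562 and 98.1 CPM (log2 difference -6.92 ± 0.59, adjusted p = 0.0122). *Gm6428* (chromosome 1, 36601802 to 36602146), a processed pseudogene, had 4, 7 and 873 UMIs, or 0.288, 0.983 and 54.3 CPM (-6.67 ± 0.70, adjusted p = 0.0236). Both were nearly absent from the KO sections in cortex and in medulla alike, where *Cyp2c52-ps* had 0, 0 and 88.9 CPM and *Gm6428* 0.599, 0.944 and 50.8 CPM. Reads of pseudogenes can be shared with their parent genes, so the source of these UMIs is uncertain. Both calls were lost with DESeq2 size factors (adjusted p = 0.0830 and 0.117).

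Genes with the smallest p-values above WT, none of which passed the adjusted threshold, were these. *Ildr2*, an immunoglobulin-like membrane receptor, had 90.2 CPM in KO1134, 44.7 in KO1308 and 1.43 in WT1101 (log2 difference 5.45, adjusted p = 0.135). *Ntsr1*, the neurotensin receptor, had 183 UMIs in KO1134, 184 in KO1308 and 2 in WT1101 (adjusted p = 0.135). *Slpi*, a secreted inhibitor of leukocyte proteases, had 173, 231 and 13.8 CPM (3.73, adjusted p = 0.215). Genes were named in this way only where both KO sections lay on the same side of WT, so that side came with the choice.

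Of the others, *Car3*, *Scd1* and *Cfd* are enzymes or secreted factors of fat tissue. *Car3* had 36.8, 60.2 and 1.74 CPM and *Scd1*, a fatty acid desaturase, 116, 267 and 6.78. *Cfd*, the complement protease adipsin, had 76.1, 199 and 8.65 CPM. They had the same order of sections as the adipocyte list, KO1308 above KO1134 above WT1101. *Dlk1*, a Notch-related inhibitor of fat cell differentiation, had 9.43, 18.1 and 0.311 CPM, *Ccl8*, a macrophage chemokine, 44.5, 42.0 and 4.42, and *Ighg2c*, an immunoglobulin heavy chain constant gene, 2000.4, 1781 and 153.

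On the lower side, *S100a9*, a calcium-binding protein of neutrophils, had 1.87 CPM in KO1134, 2.11 in KO1308 and 26.0 in WT1101 (log2 difference -3.83, adjusted p = 0.206). *Scfd1*, a vesicle transport protein, had 70.5, 69.2 and 508 CPM (-2.99, adjusted p = 0.235). *Naa16*, an auxiliary subunit of N-terminal acetyltransferase, had 71.6, 49.9 and 324 CPM (-2.52, adjusted p = 0.374). For these genes the KO sections were close to each other and 4-fold or more below WT.

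*Fam20a*, a secretory pathway pseudokinase, had 6.48, 3.37 and 42.5 CPM, *Tbc1d12* 24.8, 22.05 and 105, *Fam178b* 11.9, 19.8 and 66.3, *Col19a1*, a collagen gene, 2.09, 4.07 and 21.8, *Dnah2*, a dynein heavy chain, 3.53, 5.48 and 23.3, and *Ly6g6f* 0.216, 1.12 and 11.8. Their log2 differences ran from -4.40 for *Ly6g6f* to -2.21 for *Fam178b*. The KO sections were below WT in every case, as the choice of genes required. Neither they nor *Trp53*, which falls under the same rule, passed the adjusted threshold.

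**Figure D4:**
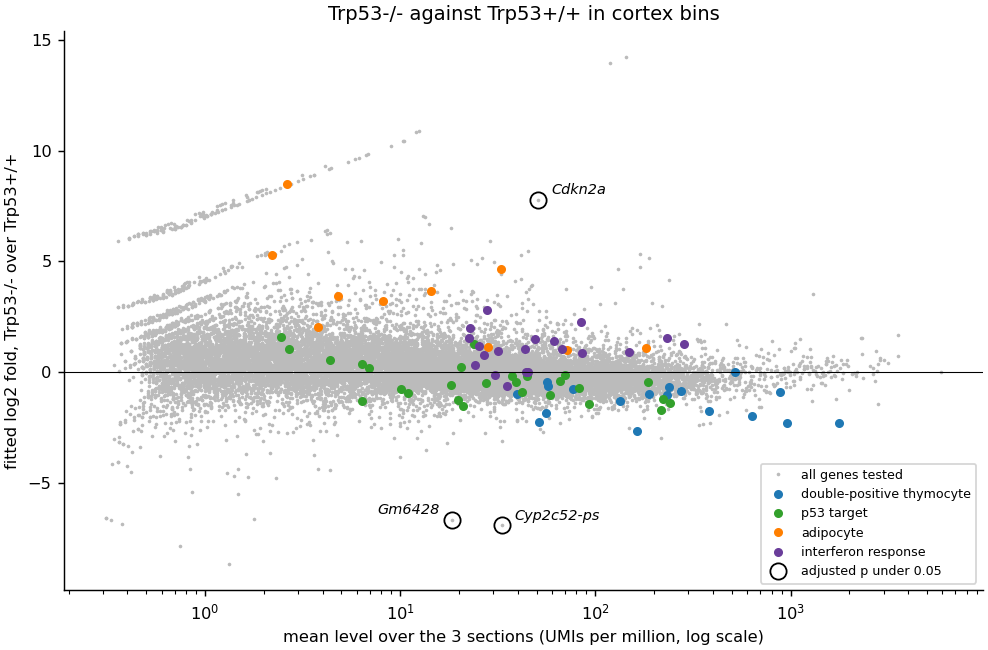
Log2 difference between KO and WT cortex against mean CPM (log axis) for 19423 genes, with interferon, adipocyte, double-positive and p53 target genes coloured and the 3 called genes circled. The 10 adipocyte genes lie above 0 and 15 of 18 double-positive genes have both KO sections below WT, as do 26.8% of all genes.

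Whether the genotypes differed in the cortex as they did in the medulla was tested with a section term, on the difference of the KO and WT contrasts between cortex and medulla bins. Of 19362 genes tested, 37 had a larger KO minus WT difference in the cortex (0.191%) and 5 a smaller one (0.0258%). These counts depended on scaling, with 2 and 1 on total UMIs without TMM scaling and 0 and 0 with DESeq2 size factors, and DESeq2 itself called 8 and 1. At an unadjusted p under 0.05 the counts were 852 and 240. As given above, medulla bins resembling lymph node were most frequent in KO1134.

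*Cdkn2a* was among the called genes, with a KO minus WT difference larger in cortex than in medulla by 4.65 ± 0.78 on the log2 scale (adjusted p = 0.00571). Part of this came from WT1101, where its level was lower in cortex than in medulla, as given above. The WT cortex value rests on few counts, with a *Cdkn2a* UMI in 5 cortex bins. *Cfd* had 76.1, 199 and 8.65 CPM in cortex and 29.7, 50.8 and 23.8 CPM in medulla, a difference of 2.996 ± 0.42 (adjusted p = 0.000613). It was higher in cortex than in medulla in both KO sections and lower in cortex in WT1101. *Sprr2a2* and *Sprr2a1* are near-identical small proline-rich proteins of differentiating epithelium, so their UMIs may be shared. *Sprr2a2* had 13.5, 53.5 and 2.55 CPM in cortex and 23.7, 124 and 46.7 CPM in medulla (3.05 ± 0.44, adjusted p = 0.000778), and *Sprr2a1* differed by 2.55 ± 0.44 (adjusted p = 0.00602).

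In the other direction, *Iglc3*, an immunoglobulin light chain constant gene, had 22.8, 34.7 and 68.5 CPM in cortex and 86.1, 97.3 and 31.5 CPM in medulla (-2.95 ± 0.40, adjusted p = 0.000578). It was thus below WT in the KO cortex and above WT in the KO medulla. *Lyve1*, a receptor of lymphatic endothelium, was at 98.7 CPM in the medulla of KO1134 and at 3.07 or less elsewhere (-4.92 ± 0.79, adjusted p = 0.00334). Without bins resembling lymph node its adjusted p was 0.0667 and that of *Cd79b*, a chain of the B cell receptor, 0.407. *S100a9* differed by -2.92 ± 0.56 (adjusted p = 0.0118), with 6.71, 15.8 and 18.9 CPM in the medulla.

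Over all genes the median of this difference was 0.06, with 10564 genes positive and 8806 negative. The part of medulla bins resembling lymph node in the list values below was not tested. The adipocyte list had a median of 1.55, with 9 of 10 genes positive, and the dendritic cell list 0.81, with 9 of 9 positive, whereas the B cell list had -0.78, with 8 of 9 negative. The heart muscle list had 3.26 and the other medullary epithelial list 1.04. Heart muscle genes summed to 6.05 CPM in KO1134, 113 in KO1308 and 4.35 in WT1101 in cortex, and to 21.4, 45.1 and 20.9 in medulla. Only in KO1308 was their sum higher in cortex than in medulla. For the medullary epithelial list, the part of the medullary limit, which was higher in the KO sections, was not tested. All 20 mitosis genes and all 20 replication genes had a positive difference, with medians of 0.77 and 0.52, and 0 of these 40 passed in edgeR or DESeq2, with 8 and 4 higher at an unadjusted p under 0.05. The double-positive list had a median of 0.41, with 11 of 18 genes positive and 7 negative, from -1.515 to 1.87. The largest difference in it was that of the recombinase gene *Rag1*, 1.87, which did not pass (adjusted p = 0.0818). *Rag1* had 51.4, 407 and 687 CPM in cortex and 4.43, 109.8 and 453 in medulla. Of these lists, *Car3* and *Retn* of the adipocyte list passed with 2.90 and 3.31, *Tnnt2* of the heart muscle list passed as larger and *Cd79b* of the B cell list as smaller in the cortex.

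Within the cortex, bins near the tissue edge were compared with those deeper in. Cortex bins over tissue were split at the section's median distance to the edge, which was 249 µm in KO1134, 164 µm in KO1308 and 351 µm in WT1101, into outer and inner bins. With section as a block, 26 of 16320 genes were higher in outer bins (0.159%) and 23 lower (0.141%), and 835 and 747 had an unadjusted p under 0.05. Without KO1308, 0 and 1 genes were called, and without KO1134, 58 and 53.

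Outer bins had more of 2 mitochondrial ribosomal RNAs and of a stromal gene. *Pi16*, a peptidase inhibitor of fibroblasts around vessels and capsule, had 17.3 CPM in outer and 7.33 in inner bins of KO1134, 14.8 and 4.06 in KO1308, and 12.3 and 1.93 in WT1101 (log2 difference 1.80, adjusted p = 0.00629). *mt-Rnr2* had 369 and 260.3 CPM in KO1134, 338 and 229 in KO1308, and 109 and 80.3 in WT1101 (0.54, adjusted p = 0.00629). *mt-Rnr1* and *mt-Nd3* differed in the same direction, by 0.55 and 0.92 (adjusted p = 0.00741 and 0.00987). *Myo3a*, an unconventional myosin, had 195 and 152, 341 and 197, and 272 and 179 CPM (0.62, adjusted p = 0.00741). All 5 genes were higher in the outer bins of each section.

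Inner bins had more of several genes that were higher in the medulla. *Fcgbp*, a mucus-associated protein, had 46.4 CPM in outer and 103 in inner bins of KO1134, 111 and 218 in KO1308, and 45.3 and 89.9 in WT1101 (log2 difference -1.001, adjusted p = 5.67e-05). It was the gene called without KO1308. *Enpp2*, the enzyme autotaxin, differed by -1.003 (adjusted p = 0.00117), and *Ubd*, a ubiquitin-like modifier of medullary epithelium, by -0.63 (adjusted p = 0.00629). *Wfdc17* and *Apod*, the lipid carrier apolipoprotein D, differed by -0.77 and -0.76 (adjusted p = 0.00741 and 0.0184). In medulla bins *Fcgbp* was at 614, 761 and 740.0 CPM, far above either set of cortex bins.

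**Figure D5:**
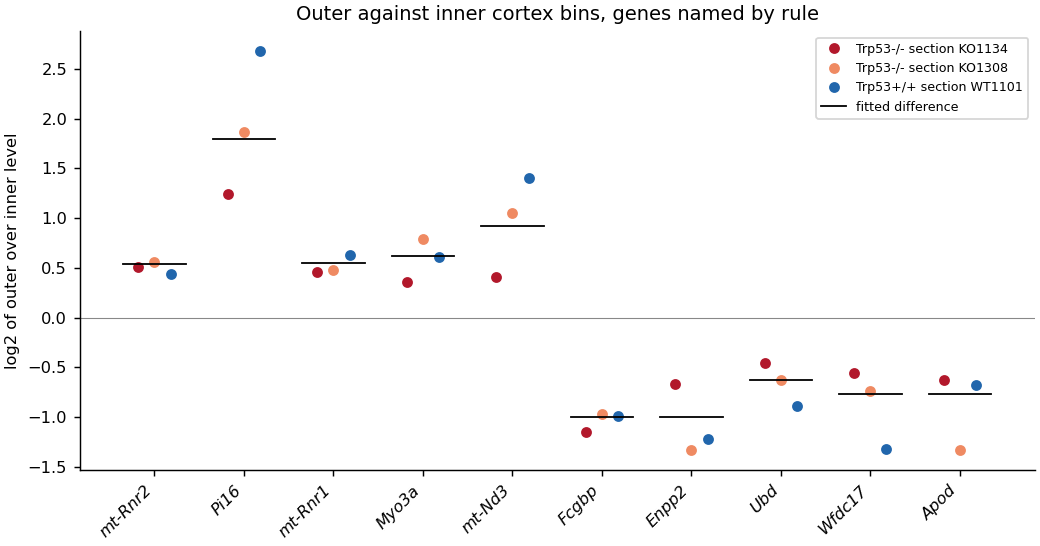
Log2 ratio of outer to inner cortex bins for the 10 named genes, 1 point per section and a bar at the fitted difference. All 3 sections lie on the same side of 0 for each gene, from -1.001 for Fcgbp to 1.80 for Pi16.

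Maturing thymocytes followed the same axis. All 19 genes of mature single-positive cells had a negative fitted difference, with a median of -0.24 beside 0.00 over all genes, and 2 passed as lower in outer bins. These were *Ccr7*, the chemokine receptor that guides positively selected cells to the medulla (-0.90, adjusted p = 0.0412), and *Gimap4*, a GTPase of mature T cells (-0.60, adjusted p = 0.0412). All 20 mitosis genes had a positive difference with a median of 0.20, 0 passed in edgeR or DESeq2, and 10 were higher at an unadjusted p under 0.05. Macrophage genes *Lyz2* and *Apoe* were lower in outer bins (-0.49 and -0.49, adjusted p = 0.0184 and 0.0488), as was the medullary keratin *Krt17* (-0.45, adjusted p = 0.0441).

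Some lists described for KO and WT also leaned along this axis, without a called gene. All 9 adipocyte genes tested were positive (median 0.62), 18 of 20 interferon-response genes were negative (-0.15), and all 8 MHC class II and all 9 dendritic cell genes were negative (-0.17 and -0.09), beside 8128 positive and 8200 negative over all genes. In these lists 0 genes passed in edgeR or DESeq2, with 1 adipocyte gene higher and 5, 2 and 1 of the others lower at an unadjusted p under 0.05. The double-positive list had a median of -0.04, and *Cdkn2a* differed by -0.21 (adjusted p = 0.534). With inner bins alone, an alternative chosen after seeing the data, the KO and WT medians were -1.16 for the double-positive list, 1.08 for the interferon list and 3.69 for the adipocyte list.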

How the data were processed

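Spatial transcriptomes of thymus sections from 2 *Trp53*-/- mice and 1 *Trp53*+/+ mouse were used. Reads were assigned to spots with BSTMatrix and aligned with STAR by the authors, who deposited raw UMI counts of every gene in each spot together with spot positions. The labels name GRCm38, and 99.8% of 54838 gene identifiers were found in its GENCODE M21 annotation, which gave gene positions. The authors' removal of folds was not repeated.

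UMIs were summed in 27 µm bins, filtered and classified as the report describes, and summed over the bins of an area in each section. Medulla bins had a medullary share at or above, and a cortical share below, that of their section. The limit on mitochondrial UMIs was 30%. The genes that defined the bins were left out of all tests. The sums were tested with edgeR 4.0.16 (R 4.3.3, quasi-likelihood, TMM scaling, filterByExpr, Benjamini-Hochberg adjustment), for KO against WT in cortex bins with 1 residual degree of freedom, which assumes that the lone WT section varies like the KO sections, for the same difference compared between cortex and medulla with section as a block, and for outer against inner bins with section as a block. DESeq2 1.42.0 was an alternative. The adjusted threshold was 0.05, and a second description counted genes with both KO sections on the same side of WT and a fitted difference of at least 2-fold. Intervals are exact Poisson or binomial at 95%. Python 3.11.15 with numpy 2.4.6, scipy 1.17.1, pandas 2.3.3 and matplotlib 3.10.9 made the sums and figures. The fits were tested on simulated counts.

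Named genes are those of the gene lists and *Trp53*, the 10 with the smallest p in each direction between genotypes among genes with at least 100 UMIs and both KO sections on the same side of WT, and the 5 in each direction of the other 2 tests. Unnamed gene models, pseudogenes and receptor segments were passed over, and 2 genes that the rule selects are not reported here. The bins, lists and rules were chosen with earlier results of these data known. Alternatives covered bin width, window, gene limit, rule limits, scaling, low counts, equal depth and left-out sections. The single-cell and other data of the study were not used here.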

Additional observations from a re-analysis of the deposited data

Results flagged for a closer look

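For 8 named genes the difference between KO and WT was not the same in cortex and medulla bins, by a test of the difference itself with section as a block in edgeR. On the log2 scale, the KO minus WT difference was larger in the cortex by 4.65 for *Cdkn2a*, 3.05 for *Sprr2a2*, 2.996 for *Cfd* and 2.55 for *Sprr2a1*. For *Cdkn2a* the WT cortex value rests on few counts, as given above. It was smaller in the cortex for *Lyve1* (-4.92), *Iglc3* (-2.95), *S100a9* (-2.92) and *Cd79b* (-1.82). Medulla bins resembling lymph node were 1118 in KO1134, 399 in KO1308 and 0 in WT1101, and without them the values were -3.12 for *Lyve1* (adjusted p = 0.0667) and -0.95 for *Cd79b* (adjusted p = 0.407), whereas *Cdkn2a* stood at 4.29 (adjusted p = 1.67e-07). All 8 calls were lost with DESeq2 size factors. With the WT shares as limits for all sections, 7 of the 8 were lost, all but *Iglc3*, and *Cfd* fell to 0.63.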

How the results depend on the processing

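Counts are given as higher and lower. Between genotypes, the 1 and 2 calls of the cortex became 2 and 2 on total UMIs and with bins of 50 µm, 8 and 2 with a cortical share of at least 1.5 times the section's, 57 and 14 with the WT shares as limits, 290 and 89 without a filter on low counts, 81 and 13 with DESeq2, and 3 and 2 with inner bins alone. They were 0 and 1 without ribosomal protein, mitochondrial and immunoglobulin genes, and 0 and 0 with DESeq2 size factors, bins of 20 µm, windows of 5 × 5 or 9 × 9 bins, and at least 200 or 500 genes per bin. Genes with both KO sections on the same side and at least 2-fold numbered 3096 and 1065, and 4837 and 3635 without the filter. Leaving out either KO section gave 2798 to 2998 above and 1167 to 1947 below, with no test, the larger count below being that without KO1308.

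The 37 and 5 genes that differed between cortex and medulla became 2 and 1 on total UMIs, 0 and 0 with DESeq2 size factors, with bins of 50 µm and without the filter, 15 and 2 with bins of 20 µm, 7 and 5 at 1.5 times the section's share, 0 and 1 with the WT shares, 54 and 5 with windows of 5 × 5 bins, 1 and 2 with 9 × 9, 30 and 3 with 200 genes per bin, 57 and 7 with 500, 100 and 15 without bins resembling lymph node, 8 and 1 with DESeq2, and 2 and 0 without ribosomal protein, mitochondrial and immunoglobulin genes.

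The 26 and 23 genes between outer and inner bins became 43 and 61 on total UMIs, 39 and 42 with DESeq2 size factors, 42 and 19 with bins of 20 µm, 10 and 30 with 50 µm, 23 and 13 at 1.5 times the section's share, 29 and 6 with the WT shares, 41 and 40 with windows of 5 × 5 bins, 147 and 124 without the filter, 16 and 9 with DESeq2, 10 and 13 without the 3 gene classes, 24 and 57 by distance to the medulla, and 0 to 58 and 1 to 53 without either KO section. Cortex bins were 16.9%, 10.4% and 6.99% of kept bins in KO1134, KO1308 and WT1101 at 1.5 times the section's share, and 23.8% and 10.8% in the KO sections with the WT shares. The causes of these changes were not tested. Over the alternatives for named genes, 1793 values kept direction and side of the threshold, 186 lost a call, 84 gained one, 36 moved without a test and 2 reversed, *Tbata* at -0.486 without KO1134 and 0.0274 without KO1308, and *Cdkn2a* at 0.0710 between outer and inner bins by distance to the medulla. No paired analysis between genotypes was possible, because each section came from a different mouse and there was 1 WT section. Depth limits genes of few UMIs most in KO1308, where 3 UMIs are 0.421 CPM.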

Other observations

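Some genes with large values in the cortex of a single KO section were noticed after the values were seen, and none passed between genotypes in edgeR, while DESeq2 called *Ndufb1-ps*, *Gm26631* and *Tcrg-C4* higher. In KO1308, *Ndufb1-ps*, a pseudogene, had 431.5 CPM and *Gm26631*, an unnamed gene model, 355.6 CPM, and both were at 0 UMIs in KO1134 and WT1101. In KO1134, *Cpa3*, a carboxypeptidase known from mast cells and progenitors, had 495.1 CPM against 6.18 in KO1308 and 6.10 in WT1101. *Coro2a*, an actin-binding coronin, had 455.0 CPM in KO1134, 42.7 in KO1308 and 9.02 in WT1101, and *Tcrg-C4*, a TCR gamma constant gene, had 478.0, 77.4 and 30.2 CPM in the same order. For these 5 genes the KO sections differed from each other by more than 5-fold, and *Trap1a* was likewise seen mainly in KO1134, at 36.1 CPM against 1.40 in KO1308 and 0 UMIs in WT1101.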
